A study of Homo sapiens with 6 samples.

Results

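Jurkat and 6T-CEM are human cell lines of T-ALL, a leukaemia of immature T cells. The H3K27ac peaks described here lie in 3 long stretches of the genome in which Jurkat cells carried peaks and 6T-CEM cells carried none. The stretches are chr9:89580394-91101124, chr17:65180153-67244605 and chr20:57452123-58267783 (hg38), and they are called the SYK, PRKCA and PMEPA1 stretches after the gene in each that had a peak near an end in both Jurkat libraries. They were chosen from these same peak lists, as intervals of at least 500 kb between neighbouring 6T-CEM peaks that held at least 10 peaks in each Jurkat library, so the contrast that defines them is described without a test. Inside them lay 70 peaks of Jurkat replicate 1, 229 peaks of Jurkat replicate 2 and 0 peaks of 6T-CEM, 299 of the 83410 peaks on chromosomes 1 to 22 and X. The 500 kb flanks on either side held 73, 165 and 117 peaks in the same order of libraries.

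The series comprised 6 samples: Jurkat H3K27ac (2 libraries), Jurkat IgG, 6T-CEM H3K27ac (1 library) and 6T-CEM IgG. The 3 IgG samples were not analysed here. The series title names GNE-987, an inhibitor of BET bromodomain proteins, and its design text speaks of cells treated at 10 nM for 24 h by CUT&Tag, but the sample labels name none, so each library may come from treated or untreated cells. Each line is a single line, separate cultures are not stated for the Jurkat replicates, and the peak names of replicate 2 carry an extra tag (NE) that the labels do not explain.

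H3K27ac, acetylation of lysine on the tail of histone H3, marks active promoters and enhancers, the latter often lying in introns or between genes at a distance from the gene they act on. SYK encodes a tyrosine kinase that carries signals from immunoreceptors, above all the B-cell receptor, and its close relative ZAP70 has this role at the T-cell receptor. PRKCA encodes protein kinase C alpha, a kinase activated by calcium and diacylglycerol. PMEPA1 encodes a membrane protein that is induced by TGF-beta and restrains TGF-beta signalling by holding SMAD proteins.

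Of the 16 protein-coding genes lying wholly inside the stretches, SYK, PRKCA and PMEPA1 were the ones marked near an end (within 1 kb) in both Jurkat libraries. In the RefSeq annotation (GRCh38.p14), SYK (gene ID 6850) spans chr9:90801600-90898549, PRKCA (gene ID 5578) chr17:66302613-66810743 and PMEPA1 (gene ID 56937) chr20:57648396-57711472. Their promoters are shown because the Jurkat peaks sat differently on each of them. The sequences are the 250 bases before the annotated start, read along the direction of transcription, from RefSeq on the same build. They lie at chr9:90801350-90801599 (plus strand), chr17:66302363-66302612 (plus strand) and chr20:57711473-57711722 (minus strand). Capitals mark matches to the ETS motif AGGAAG on either strand.
SYK: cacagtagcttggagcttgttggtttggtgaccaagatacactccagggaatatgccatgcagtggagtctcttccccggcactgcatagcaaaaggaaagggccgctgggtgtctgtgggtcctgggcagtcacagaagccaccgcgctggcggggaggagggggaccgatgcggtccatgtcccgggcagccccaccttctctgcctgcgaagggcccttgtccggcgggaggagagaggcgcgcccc
PRKCA: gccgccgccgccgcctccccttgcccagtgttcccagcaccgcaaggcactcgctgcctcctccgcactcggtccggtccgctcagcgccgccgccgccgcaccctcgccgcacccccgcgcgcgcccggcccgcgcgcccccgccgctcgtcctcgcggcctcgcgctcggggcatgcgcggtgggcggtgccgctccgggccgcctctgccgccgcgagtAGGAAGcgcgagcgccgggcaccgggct
PMEPA1: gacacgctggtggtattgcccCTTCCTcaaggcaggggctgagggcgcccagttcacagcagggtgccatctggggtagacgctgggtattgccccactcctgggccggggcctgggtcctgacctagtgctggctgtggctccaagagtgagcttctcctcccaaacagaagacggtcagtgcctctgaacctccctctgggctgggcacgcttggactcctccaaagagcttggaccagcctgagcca

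At SYK, all 250 promoter bases lay under a peak in both Jurkat libraries. The peak spanned chr9:90801303-90802462 in replicate 1 with a fold of 4.85, and chr9:90801165-90802566 in replicate 2 with a fold of 8.58. Fold here is the authors' fold enrichment of a peak over the peak caller's background. At PRKCA, the replicate 1 peak chr17:66302065-66303983, with a fold of 5.98, covered all 250 promoter bases, whereas the replicate 2 peak chr17:66302763-66303401, with a fold of 4.48, began 150 bp downstream of the start. At PMEPA1, the promoter bases lay under no peak in either Jurkat library. The nearest peaks began 934 bp downstream of the start in replicate 1, with a fold of 3.61, and 829 bp downstream in replicate 2, with a fold of 5.25. They overlapped NKILA, a long non-coding RNA gene lying across the start of PMEPA1 whose RNA is known to bind NF-kappaB complexes, and since the mark has no strand, the peaks cannot be assigned to either gene. The nearest 6T-CEM peak lay 299.5 kb from the start of SYK, 942 kb from that of PRKCA and 259 kb from that of PMEPA1.

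The 3 promoters also differed in base composition. PRKCA had 47 CpG dinucleotides and 82.0% G and C, with 99.6% of 15812 RefSeq promoters of the same length holding fewer CpG. SYK had 13 CpG and 64.0% G and C, and 37.8% of promoters held fewer CpG. PMEPA1 had 6 CpG and 63.2% G and C, the fewest CpG of the 3. The medians over all 15812 promoters were 17 CpG and 62.4% G and C. Each promoter was searched on both strands for 5 motifs. The ETS motif AGGAAG, held by 28.7% of all promoters of this length, matched PRKCA at -28 to -23 relative to the start, and PMEPA1 at -229 to -224 on the strand opposite to transcription. The RUNX motif TGTGGT matched none of the 3 promoters and is held by 8.90% of all promoters. The E-box CAGCTG, of the kind bound by TAL1 with E proteins, matched none of the 3 and is held by 13.3% of all. The GATA motif AGATAA likewise matched none and is held by 6.84% of all. The TATA box motif TATAAA also matched none and is held by 9.25% of all. SYK thus held none of the motifs in this window.

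The lengths of the stretches are 1.52 Mb (SYK), 2.06 Mb (PRKCA) and 0.816 Mb (PMEPA1), together 4.40 Mb or 0.149% of the span of the chromosomes used. The SYK stretch held 13 peaks covering 14761 bp in replicate 1 and 31 peaks covering 26600 bp in replicate 2. The PRKCA stretch held 33 peaks covering 29738 bp and 93 peaks covering 62758 bp. The PMEPA1 stretch held 24 peaks covering 25001 bp and 105 peaks covering 118871 bp. Replicate 2 was thus the higher library in every stretch, with the widest gap at PMEPA1. Replicate 2 also had the longer list genome-wide, with 32097 peaks against 16159 in replicate 1, and 6T-CEM had 35154. Sequencing depth is unknown, since the lists give no read counts.

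**Figure D1:**
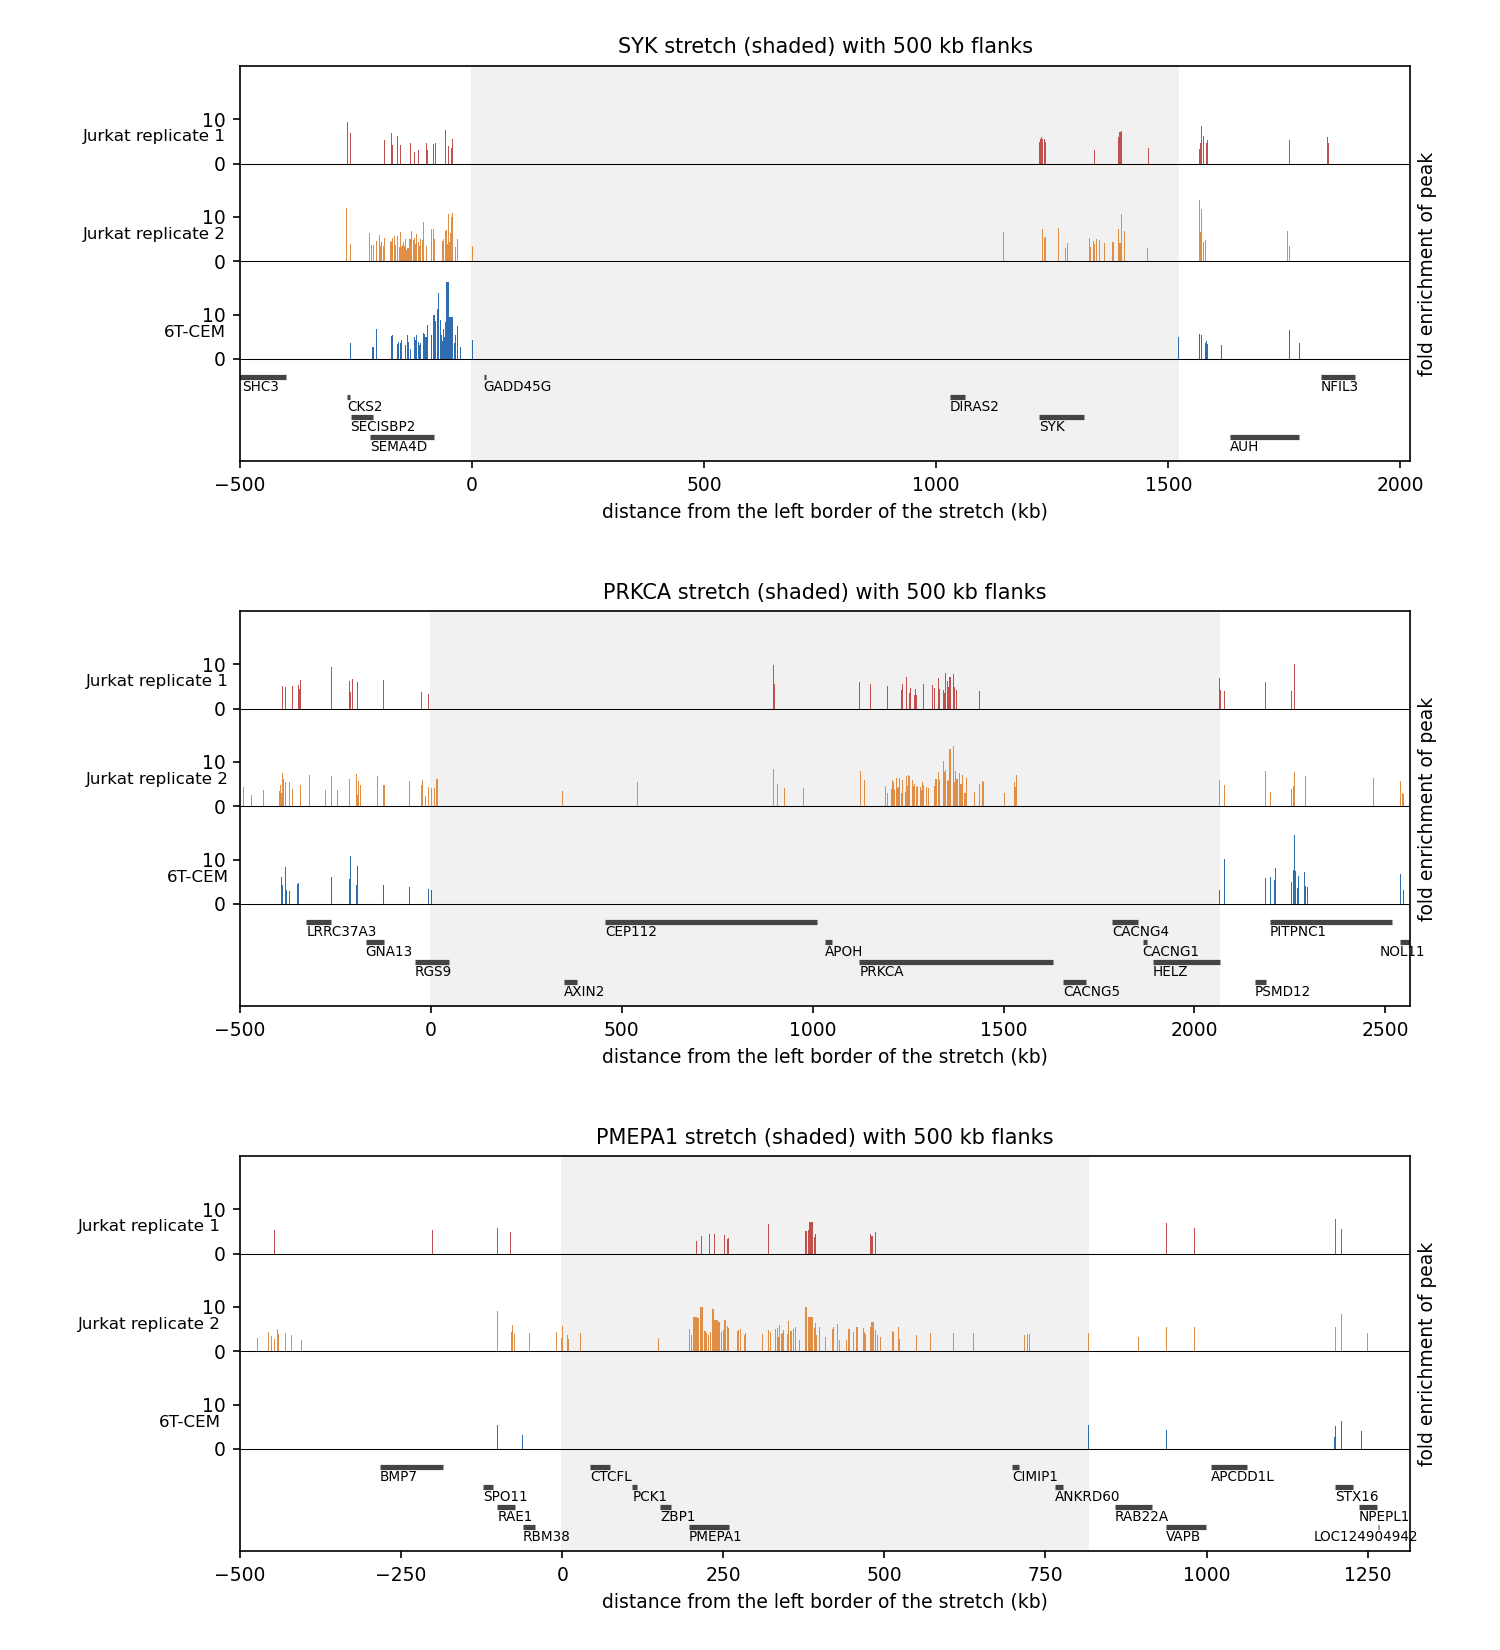
Peaks along the 3 stretches (shaded) and their 500 kb flanks, with the distance from the left border in kb on the x axis, the authors' fold enrichment as bar height for each library, and protein-coding genes below. The 3 shaded areas hold 70 and 229 Jurkat peaks and 0 6T-CEM peaks, whereas the flanks hold 117 6T-CEM peaks.

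Peak density in the stretches was 15.9 per Mb for Jurkat replicate 1, 52.0 for replicate 2 and 0 for 6T-CEM. In the flanks the densities were 24.3, 55.0 and 39.0 peaks per Mb, and over the remaining 2945 Mb they were 5.44, 10.8 and 11.9. In the flanks all 3 libraries were thus denser in peaks than elsewhere. The 6T-CEM density was highest in the left flank of the SYK stretch, which held 56 of the 117 flank peaks. The left flank of the PMEPA1 stretch held 3 6T-CEM peaks, against 7 and 28 Jurkat peaks, so that 6T-CEM peaks were sparse beyond the border as well. Much of this flank belongs to another interval without a 6T-CEM peak, chr20:56504564-57351091, which reaches farther left. That interval held 5 and 26 peaks in the Jurkat libraries, and those within the flank are already counted above.

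**Figure D2:**
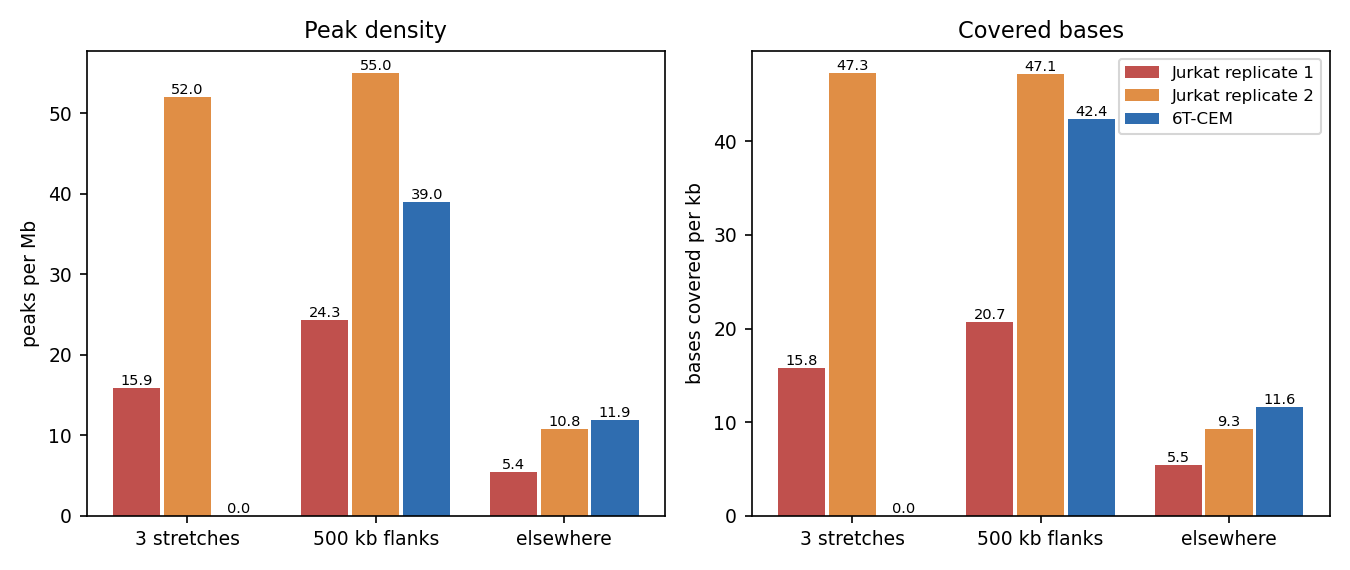
Peaks per Mb (left) and bases covered per kb (right) in the 3 stretches, in their 500 kb flanks and elsewhere, 1 bar per library. In the stretches the bars stand at 15.9 and 52.0 peaks per Mb for Jurkat and at 0 for 6T-CEM, and in the flanks at 24.3, 55.0 and 39.0.

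Peaks within the stretches were near the medians of their libraries in width and fold, but lower in −log10 q in replicate 1. Their median width was 678.5 bp in replicate 1 and 561 bp in replicate 2, against 763 bp and 583 bp elsewhere. The median fold was 4.84 in replicate 1 and 4.86 in replicate 2, against 5.17 and 4.32 elsewhere. The median −log10 q was 5.03 in replicate 1 and 6.75 in replicate 2, against 6.66 and 7.04 elsewhere. In the stretches, 4.29% of the replicate 1 peaks and 1.75% of the replicate 2 peaks lay within 1 kb of an end of a protein-coding gene. The shares were 19.2% and 10.3% in the flanks and 43.1% and 22.2% elsewhere. The rule favoured low shares, because it left out intervals with 6T-CEM peaks. Elsewhere, 90.2% of Jurkat regions near a gene end held such a peak. Within protein-coding gene bodies lay 74.3% and 54.6% of the peaks in the stretches, against 81.0% and 75.6% elsewhere.

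The peaks were bunched rather than spread along the stretches. In the SYK stretch, the 1144 kb from chr9:89580473 to chr9:90724967, which is 75.3% of its length, held no peak of any library. A window of 200 kb around and beyond SYK held 12 of the 13 peaks of replicate 1 and 29 of the 31 of replicate 2. In the PRKCA stretch, the densest 200 kb held 28 of 33 and 66 of 93 peaks, and the widest empty interval was 438 kb long, on the right of PRKCA. In the PMEPA1 stretch, the densest 200 kb held 19 of 24 and 57 of 105 peaks, and the widest empty interval was 120 kb. Coverage of the PMEPA1 stretch was therefore the most even of the 3, above all in replicate 2.

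The layout around the leading gene differed between stretches. At SYK, peaks lay inside and downstream of the gene: by summit, 0 upstream, 8 in the body and 5 downstream in replicate 1, and 1, 12 and 18 in replicate 2. At PRKCA they lay in the gene itself, with 31 of 33 summits in the body in replicate 1 and 81 of 93 in replicate 2. At PMEPA1 they lay upstream and in the body, with 12 upstream, 11 in the body and 1 downstream in replicate 1, and 79, 21 and 5 in replicate 2, so that most lay upstream in replicate 2 alone. Both Jurkat libraries showed the same order of places in each stretch except at SYK, where replicate 1 had more summits in the body and replicate 2 more downstream.

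**Figure D3:**
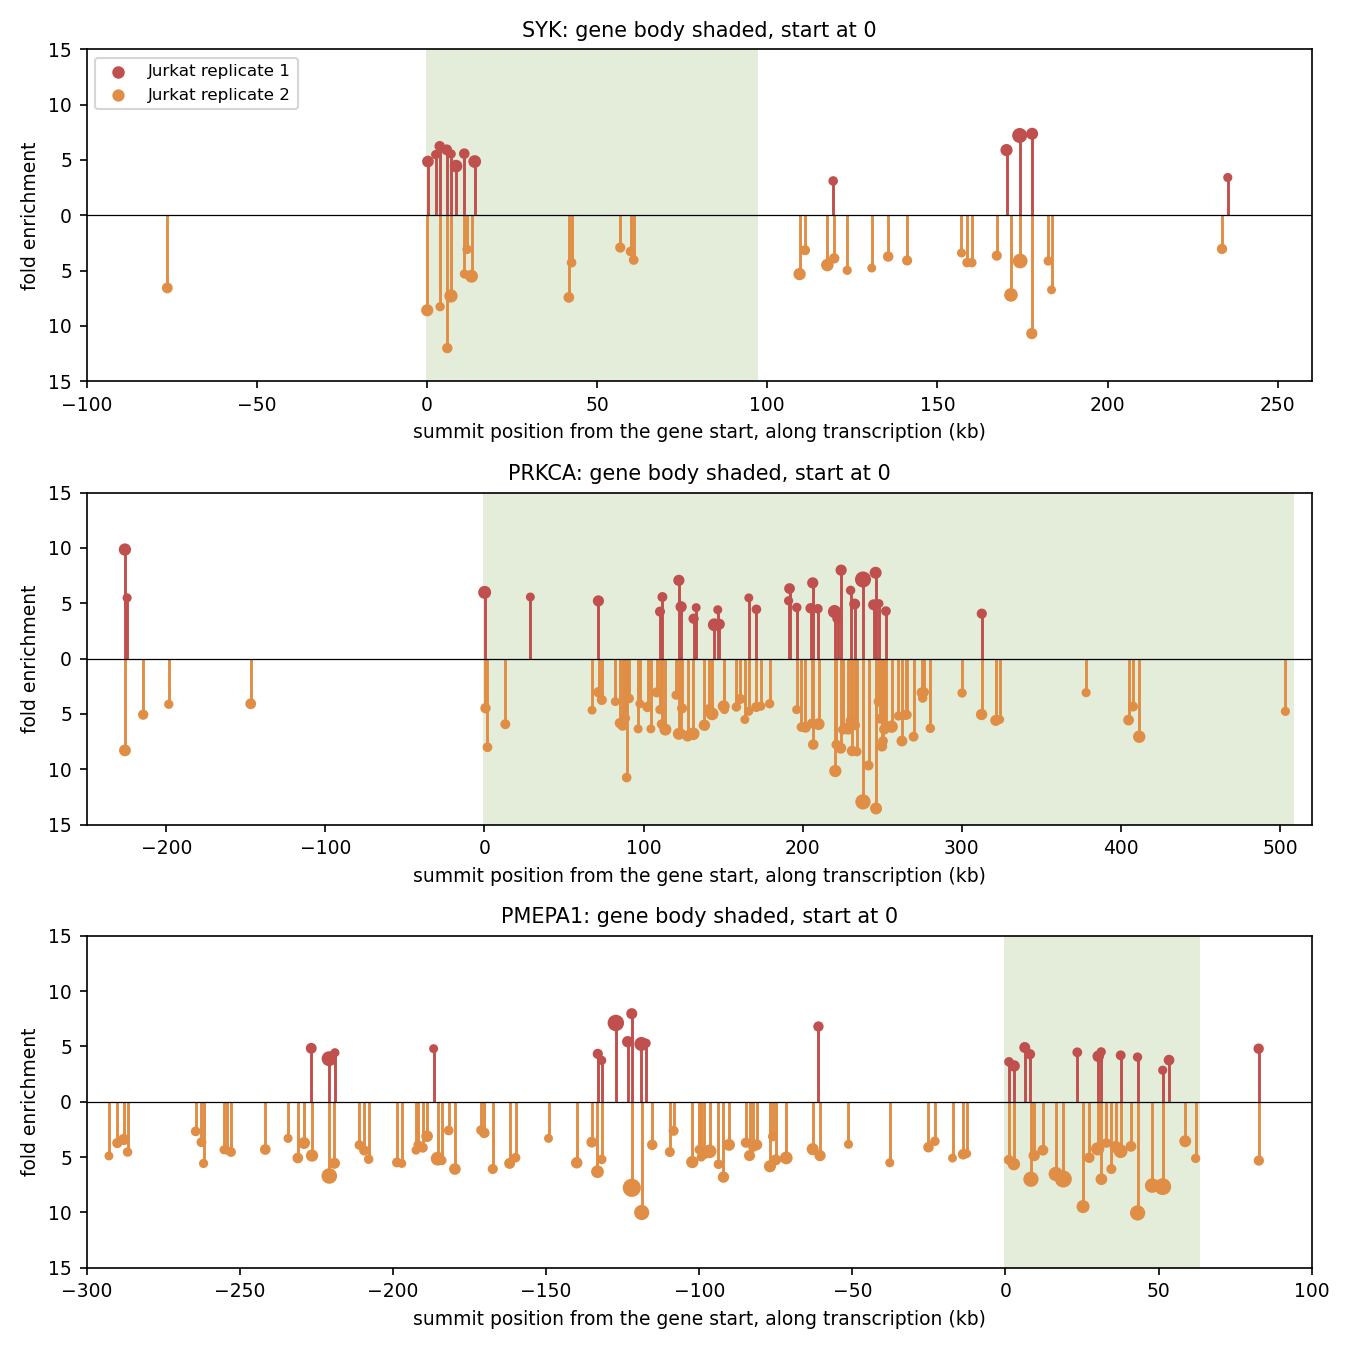
Summits of the Jurkat peaks around SYK, PRKCA and PMEPA1, with the distance from the gene start along transcription in kb on the x axis (gene body shaded) and fold enrichment on the y axis, replicate 1 upward and replicate 2 downward; dot size grows with peak width. Of the replicate 1 and replicate 2 summits, 8 and 12 lie in SYK, 31 and 81 in PRKCA, and 11 and 21 in PMEPA1.

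SYK carried a cluster at its start and another beyond its end. The start cluster ran over 15.1 kb in replicate 1 (8 peaks, 7490 bp) and 14.97 kb in replicate 2 (7 peaks, 7174 bp). Its highest peak was chr9:90805055-90805738 in replicate 1, with a fold of 6.24, and chr9:90807222-90807856 in replicate 2, with a fold of 11.998. The downstream cluster held the highest folds of replicate 1. Its peak chr9:90978589-90979899, its summit 80882 bp beyond the gene body, had a fold of 7.37, and its neighbour chr9:90974137-90977929 had a fold of 7.21 and was the widest replicate 1 peak of the stretch, at 3793 bp. In replicate 2, chr9:90978804-90979751 had a fold of 10.7, and its summit lay 95 bp from that of replicate 1. Replicate 2 alone had peaks, 6 in number, in the long non-coding RNA gene LOC105379829, between the start cluster and the downstream cluster of replicate 1. Some of these joined the wider downstream cluster of replicate 2, chr9:90958467-90985265. The others fell in a further cluster of replicate 2, chr9:90910458-90943169, with 8 peaks.

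PRKCA peaks filled a broad part of the gene body, with the highest replicate 2 folds 238 to 246 kb into the gene. The widest peak of either library in this stretch, chr17:66537768-66542970 in replicate 1, measured 5203 bp and had a fold of 7.14. Its counterpart in replicate 2, chr17:66537740-66541819, had a fold of 12.9 and the highest −log10 q of all members, 56.7. Near it, chr17:66548046-66549367 had a fold of 7.75 in replicate 1, and chr17:66548194-66549495 had a fold of 13.5 in replicate 2, the highest fold of any member. Replicate 1 also had a fold of 7.98 at chr17:66526459-66527408. The third-highest replicate 2 peak, chr17:66391804-66392239, with a fold of 10.8, met no replicate 1 peak. PRKCA-AS1, a long non-coding RNA gene inside the PRKCA locus, held 2 peaks in replicate 1 and 8 in replicate 2.

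The highest fold of replicate 1 in the PRKCA stretch lay outside PRKCA, in the body of CEP112, a gene for a centrosomal protein. This peak, chr17:66075814-66077318, had a fold of 9.85 in replicate 1. The region it formed with the replicate 2 peak spanned chr17:66075737-66077318, with a replicate 2 fold of 8.30, and the summits lay 16 bp apart. Neither Jurkat library had a peak within 25 kb of either end of CEP112.

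PMEPA1 carried peaks in its body and a long array upstream. The highest replicate 1 folds were all upstream. They were 7.96 at chr20:57832979-57833847, 7.12 at chr20:57835870-57841610 and 6.80 at chr20:57772137-57772763. The summit of the first of these lies 122024 bp from the gene start. In replicate 2 the highest fold, 10.0, was in the body, at chr20:57665819-57669885, and nearly the same fold was found upstream at chr20:57828529-57832568. A further body peak, chr20:57685152-57687149, had a fold of 9.47 in replicate 2 and met no replicate 1 peak. The widest member of all, chr20:57832805-57841965 in replicate 2, measured 9161 bp, and 3 separate replicate 1 peaks lay within its span.

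The rule asked for peaks of both Jurkat libraries in a stretch, though not at the same bases, so the overlap between replicates is given as a description. Of the 70 replicate 1 peaks, 57 shared at least 1 base with a replicate 2 peak, which is 81.4% (95% Clopper-Pearson interval 70.3 to 89.7). The share was 80.8% in the flanks (69.9 to 89.1) and 71.5% elsewhere (70.8 to 72.2). By stretch, 24 of 24 replicate 1 peaks were shared at PMEPA1, 11 of 13 at SYK and 22 of 33 at PRKCA. These intervals cover counting error only.

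In the other direction, 54 of the 229 replicate 2 peaks met a replicate 1 peak, 23.6% (18.2 to 29.6). The share was 35.2% in the flanks, 35.9% elsewhere and 25.4% elsewhere when peaks near gene ends were left out. Replicate 2 members that met replicate 1 were higher and wider than the others, with a median fold of 5.97 against 4.48 and a median width of 1079.5 bp against 505 bp. Elsewhere replicate 2 showed the same, at a median fold of 4.91 against 4.12 and a width of 886 bp against 496 bp. Most replicate 2 peaks of the stretches were thus narrow ones called in that library alone. With the lists cut to equal length, 112 of its 229 peaks in the stretches were left.

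Overlapping peaks of the 3 lists were joined into 49528 regions. Of these, 10206 held peaks of both Jurkat libraries, and 1586 of the 10206 held no 6T-CEM peak, a background of 15.5%. The stretches held 51 such regions, 10 at SYK, 22 at PRKCA and 19 at PMEPA1. Taken alone, replicate 1 gave 70 regions there and replicate 2 gave 229. Because the rule demanded stretches without 6T-CEM peaks, all 51 lack one by construction. They make up 3.22% of all Jurkat regions without a 6T-CEM peak. Near a gene end lay 3 of the 51 regions, against 480 of the 1586 Jurkat regions without a 6T-CEM peak and 4875 of all 10206. Over the genome, 9.85% of the 4875 regions near a gene end and 20.7% of the 5331 away from one had no 6T-CEM peak.

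In 43 of the 51 regions each Jurkat library had exactly 1 peak. In these 43, the summits of the libraries lay a median of 110 bp apart, and in 29 of them within 200 bp. In 33 of the 51 regions, replicate 2 covered more bases than replicate 1, against 4918 of 10103 elsewhere. As a description over these 51 regions, the highest folds of the libraries correlated with a Pearson r of 0.39 on the log2 scale and a Spearman rho of 0.35, against 0.26 and 0.23 over 10103 regions elsewhere. Neighbouring regions share libraries and loci and are not independent.

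The flanks, of which the rule fixed the border peaks alone, showed 6T-CEM peaks beside the Jurkat ones. Of 51 flank regions with both Jurkat libraries, 37 held a 6T-CEM peak, 72.5% (95% Clopper-Pearson interval 58.3 to 84.1), against 84.9% of 10103 regions elsewhere. At gene ends the counts were 12 of 12 in the flanks and 90.2% of 4859 elsewhere. Away from gene ends they were 25 of 39, 64.1% (47.2 to 78.8), against 80.1% elsewhere. With regions of replicate 2 alone, without replicate 1, the flank share was 47.0%, and with those of replicate 1 alone it was 68.2%. The flanks differed among themselves: 16 of 17 regions held a 6T-CEM peak left of the SYK stretch, and 1 of 6 left of the PMEPA1 stretch.

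The 6T-CEM peaks that form the borders stood beside medians of 647 bp and a fold of 4.65 over the 6T-CEM peaks elsewhere. Left of the SYK stretch stood a peak of 346 bp with a fold of 4.19, and right of it one of 426 bp with a fold of 4.82. The PRKCA stretch was bounded by peaks of 335 bp and 543 bp, with folds of 3.11 and 3.20, on the left inside RGS9 and on the right at the start of HELZ. The PMEPA1 stretch was bounded by a peak of 469 bp with a fold of 2.73 and, on the right, by one of 1697 bp with a fold of 5.44, above both medians. Both Jurkat libraries overlapped the border peak at HELZ, replicate 2 alone overlapped the left border peak of the SYK stretch and both border peaks of the PMEPA1 stretch, and no Jurkat peak met the other 2. In addition to the members, 3 Jurkat peaks straddled a border, 1 of replicate 1 at HELZ and 2 of replicate 2, and these were not counted as members.

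Beyond the borders, the nearest genes lying wholly outside the stretches with a 6T-CEM peak at an end were marked in the line as follows. Left of the SYK stretch, SEMA4D, which encodes a semaphorin of the T-cell surface, lay 82.3 kb away. Its covered bases within 25 kb of its ends were 8553 and 22314 bp in the Jurkat libraries, against 31696 bp in 6T-CEM, and the 6T-CEM peaks there joined into a region of 159 kb that ranked 12 in that library. Right of it, AUH, an RNA-binding enzyme gene, had 1103 and 1927 bp in the Jurkat libraries, against 1058 bp in 6T-CEM. Left of the PRKCA stretch, GNA13, a G protein subunit gene, had 2050 and 3548 bp in the Jurkat libraries, against 2428 bp in 6T-CEM. On its right, HELZ starts just beyond the border, with most of its body inside the stretch, and had a peak at that end in every library. HELZ had 2224 and 1253 bp in the Jurkat libraries, against 1419 bp in 6T-CEM. The nearest gene wholly outside there was PSMD12, a gene of the regulatory particle of the proteasome. PSMD12 had 1714 and 1269 bp in the Jurkat libraries, against 3731 bp in 6T-CEM. Left of the PMEPA1 stretch, RBM38, an RNA-binding protein gene, had 1243 and 4526 bp in the Jurkat libraries, against 757 bp in 6T-CEM. Its end had a peak in 6T-CEM alone, and the replicate 1 bases lay inside the neighbouring gene RAE1. Right of it, RAB22A, a gene for a GTPase of endosomes, had 2612 and 2049 bp in the Jurkat libraries, against 2052 bp in 6T-CEM. At GNA13, HELZ and RAB22A the 6T-CEM value lay between those of the Jurkat libraries, and at AUH it lay just below both.

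Within the stretches most of the other genes carried little. Of the 16 genes, 13 had no peak at an end in any library, and 11 had no Jurkat peak in the body. In the flanks, 12 of 21 genes had a peak at an end in all 3 libraries, and 0 of 21 had one in both Jurkat libraries and not in 6T-CEM. The stretches also hold genes of other tissues, such as APOH, which encodes a plasma protein of the liver, CACNG5, CACNG4 and CACNG1, calcium channel gamma subunit genes, and PCK1, a gluconeogenesis gene, and these had 0 bp within 25 kb of their ends in all 3 libraries. The highest value among the other genes was in replicate 2 at CIMIP1, with 0 and 2960 bp in the Jurkat libraries, against 0 bp in 6T-CEM. CIMIP1 was also the nearest gene of 25 of the 105 replicate 2 peaks of the PMEPA1 stretch. ZBP1, a sensor of Z-form nucleic acids, had 647 and 902 bp in the Jurkat libraries, against 0 bp in 6T-CEM. AXIN2, a feedback inhibitor of WNT signalling, had 0 and 667 bp in the Jurkat libraries, against 0 bp in 6T-CEM. GADD45G, a growth arrest gene, had 0 and 450 bp in the Jurkat libraries, against 346 bp in 6T-CEM, the last from the border peak.

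Within 25 kb of its ends, SYK had 7908 bp in Jurkat replicate 1, 11487 bp in replicate 2 and 0 bp in 6T-CEM. PRKCA had 1919 bp, 1951 bp and 0 bp, and PMEPA1 had 5516 bp, 38110 bp and 0 bp. In this window the Jurkat totals were close to each other at PRKCA and far apart at PMEPA1. The PRKCA totals came from different peaks. Replicate 1 had the start peak of 1919 bp alone, and replicate 2 a start peak of 639 bp with others farther off. Within 100 kb they were apart at PRKCA too, with 3142 bp in replicate 1 and 8679 bp in replicate 2. With peaks of −log10 q of 5 or more, the replicate 1 value at PMEPA1 was 483 bp, and with lists of equal length the replicate 2 value at PRKCA was 464 bp. In each case the peak within 1 kb of the gene start had dropped out of that library. The end windows left out most of PRKCA, whose whole body held 27349 bp in replicate 1 and 56120 bp in replicate 2. Of 14136 protein-coding genes with covered bases in any library, 497 (3.52%) had bases in each Jurkat library but 0 bp in 6T-CEM. Ordered by the lower Jurkat value, SYK ranked 3, PMEPA1 4 and PRKCA 38 among the 497. The rule fixed the 0 bp of SYK, PMEPA1 and PRKCA in 6T-CEM and asked for Jurkat peaks in their stretches, so these ranks are description only. Genes above 6T-CEM in both Jurkat libraries were 15.7% of all, and genes below it in both were 50.2%.

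In 6T-CEM, 2 of 17 immunoreceptor, 1 of 9 protein kinase C and 4 of 14 TGF-beta signalling genes stood at 0 bp, SYK, PRKCA and PMEPA1 included, against 11% of all 14136 genes with bases. Of the 17 immunoreceptor signalling genes, 3 were above 6T-CEM in both Jurkat libraries and 9 were below, beside 15.7% and 50.2% of all genes with bases. Jurkat bases and none in 6T-CEM were found at 2 of the 17, beside 3.52% of all. These 2 were SYK and BLNK, the adaptor gene of the B-cell receptor, with 2185 and 473 bp in the Jurkat libraries, against 0 bp in 6T-CEM. BLNK had no peak within 1 kb of an end in any library, and these bases were the near edge of a Jurkat peak cluster at DNTT, which began at chr10:96294220 in replicate 1 and chr10:96296097 in replicate 2. ZAP70 had 9902 and 20375 bp in the Jurkat libraries, against 14016 bp in 6T-CEM, so that the lines overlapped. LCK, the kinase gene acting before ZAP70, had 10476 and 16254 bp in the Jurkat libraries, against 17574 bp in 6T-CEM. LCP2, a T-cell adaptor gene, had 8726 and 13350 bp in the Jurkat libraries, against 23977 bp in 6T-CEM, above both Jurkat libraries. The list's medians were 4587 and 6552 bp in the Jurkat libraries, against 5810 bp in 6T-CEM, beside 1189 bp, 1315 bp and 1758.5 bp over all genes with bases.

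Of 9 protein kinase C genes, PRKCA alone was above 6T-CEM in both Jurkat libraries and 6 were below, beside 15.7% and 50.2% of all genes with bases. The 6T-CEM value of PRKCA was 0 bp by the rule. PRKCQ, the isoform of T-cell receptor signalling, had 3737 and 2604 bp in the Jurkat libraries, against 12270 bp in 6T-CEM. PRKCB, which encodes a further calcium-dependent isoform, had 0 and 1300 bp in the Jurkat libraries, against 3201 bp in 6T-CEM. The list's medians were 0 and 1903 bp in the Jurkat libraries, against 3201 bp in 6T-CEM.

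Of 14 TGF-beta signalling genes, 3 were above 6T-CEM in both Jurkat libraries and 6 were below, beside 15.7% and 50.2% of all genes with bases. The 3 were PMEPA1, SMAD6 and SMURF2. SMAD6, an inhibitory SMAD gene, had 11438 and 25129 bp in the Jurkat libraries, against 2391 bp in 6T-CEM. SMURF2, a ubiquitin ligase gene of the pathway, had 957 and 874 bp in the Jurkat libraries, against 521 bp in 6T-CEM. The ligand gene TGFB1 had 2387 and 8784 bp in the Jurkat libraries, against 18346 bp in 6T-CEM, and the receptor gene TGFBR2 had 1392 and 1465 bp in the Jurkat libraries, against 1957 bp in 6T-CEM. The list's medians were 1195 and 2181.5 bp in the Jurkat libraries, against 1272.5 bp in 6T-CEM.

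**Figure D4:**
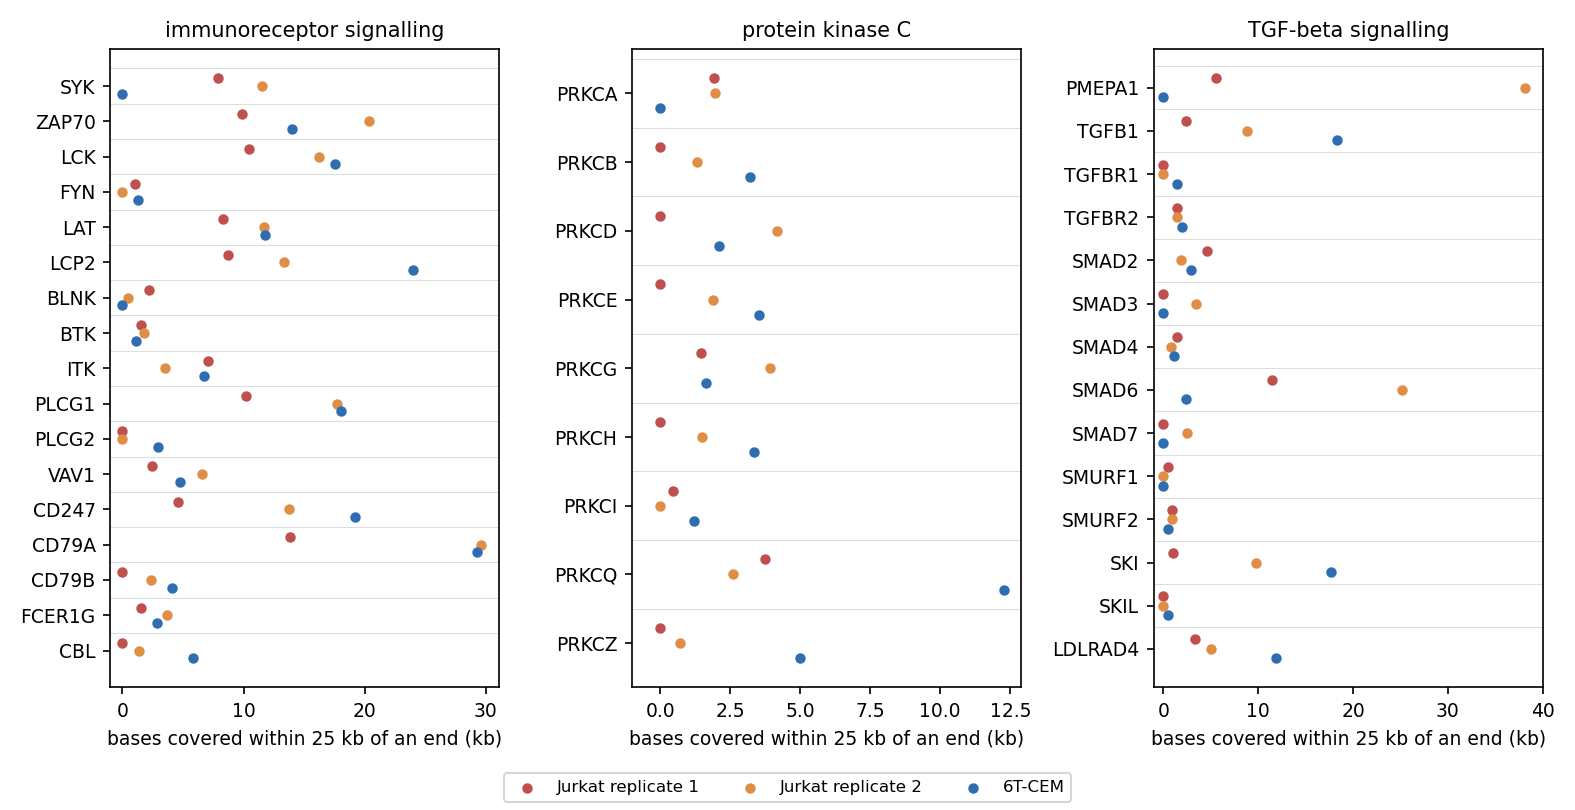
Covered bases in the windows of 25 kb around the gene ends (x axis, in kb, with its own scale in each panel) for the genes of 3 pathway lists, 1 dot per library. SYK, PRKCA and PMEPA1 stand at 0 bp in 6T-CEM, as the rule required. BLNK, SMAD3, SMAD7 and SMURF1 also stand at 0 bp there, whereas other listed genes such as ZAP70 (14016 bp), PRKCQ (12270 bp) and TGFB1 (18346 bp) are covered.

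Further lists were drawn for the minor genes of the stretches and flanks. Of 9 WNT feedback genes, 7 had bases in some library. Of these, 1 (ZNRF3) had Jurkat bases and none in 6T-CEM, and 3 were below 6T-CEM in both Jurkat libraries, beside 3.52% and 50.2% of all genes. Of 11 proteasome regulatory particle genes, 7 were above 6T-CEM in both Jurkat libraries, beside the 15.7% of all genes, and 3 were below, beside 50.2%. Of 3 GADD45 genes, 0 were above and 0 below. All 8 T-cell marker genes had bases in all 3 libraries. Of the B-cell markers reported, PAX5, EBF1 and MS4A1 were at 0 bp in every library. The summed values of 3 myeloid markers were 421 and 764 bp in the Jurkat libraries, against 1298 bp in 6T-CEM, and those of 3 erythroid markers 1607 and 1552 bp in the Jurkat libraries, against 667 bp in 6T-CEM.

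Neighbouring peaks were joined into stitched regions at the default stitching distance of the ROSE program. The regions were ranked by width times fold, summed over their peaks, and those beyond the bend of the rank curve (slope 1 after scaling) were called large. They only approximate super-enhancers, since no read signal was used. Large stitched regions were 3 of the 19 in the stretches in replicate 1 and 4 of the 30 in replicate 2. Over the genome they were 424 of 8853 and 584 of 11190, and in the flanks 1 of 28 and 2 of 41. The rule asked for at least 10 peaks per Jurkat library, which favours large regions, so these shares are description only. Scored by width alone the large regions in the stretches were 5 in replicate 1, and with a stitching distance of 5 kb they were 7 in replicate 2. The highest in replicate 1 was in PRKCA, chr17:66493574-66555249, with 16 peaks and rank 91. It was followed by chr20:57828568-57845065 upstream of PMEPA1, with rank 159, and by chr9:90971409-90979899 beyond the end of SYK, with rank 342. In replicate 2 the highest was the array upstream of PMEPA1, chr20:57762578-57975973, with 60 peaks over 213 kb and rank 22. The PMEPA1 body followed with 21 peaks and rank 32, and PRKCA held chr17:66498783-66582992 with rank 72 and chr17:66370126-66482123 with rank 190. The downstream and start clusters of SYK in replicate 2 ranked 598 and 600 and were not large in that library, in which 584 were. The order of the loci thus differed between the Jurkat libraries, with PRKCA first in replicate 1 and PMEPA1 first in replicate 2.

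Large Jurkat regions without any base under a 6T-CEM peak were few. They were 12 of 424 in replicate 1 (2.83%), of which 3 lay in the stretches, and 13 of 584 in replicate 2 (2.23%), of which 4 lay in the stretches. Those in the stretches lack 6T-CEM bases by construction. In replicate 2 the 3 highest-ranked of the 13 were the 2 regions at PMEPA1 and the higher one at PRKCA. In replicate 1 a region at DNTT, the terminal transferase gene, stood above them with rank 85.

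Among all intervals of at least 500 kb between neighbouring 6T-CEM peaks, 1210 in number, the 3 stretches were the ones past the limit of 10 peaks in each Jurkat library. The median interval held 0 peaks in each Jurkat library, and 948 held 0 in at least 1 of them. The stretches made up 0.242% of the length of these intervals and held 9.37% of the replicate 1 peaks and 13.3% of the replicate 2 peaks inside them. Just inside the limit stood the SYK stretch, with 13 and 31 peaks. Just outside stood chr2:3577219-6851273, which includes SOX11, with 8 and 13 peaks, and an interval on chromosome 8 with 8 and 9. These values are what the rule used. With lists of equal length 8 intervals passed the limit, and without Jurkat replicate 1 the number was 30. When the genome was cut into windows of 500 kb, the window with most Jurkat regions lacking a 6T-CEM peak was chr20:57500001-58000000, with 19. The windows of the PRKCA stretch ranked 6 and 7 with 11 each, and that of the SYK stretch ranked 10 with 10. The other 6 of the first 10 windows lay on chromosomes 1, 2, 3, 6 and 7.

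**Figure D5:**
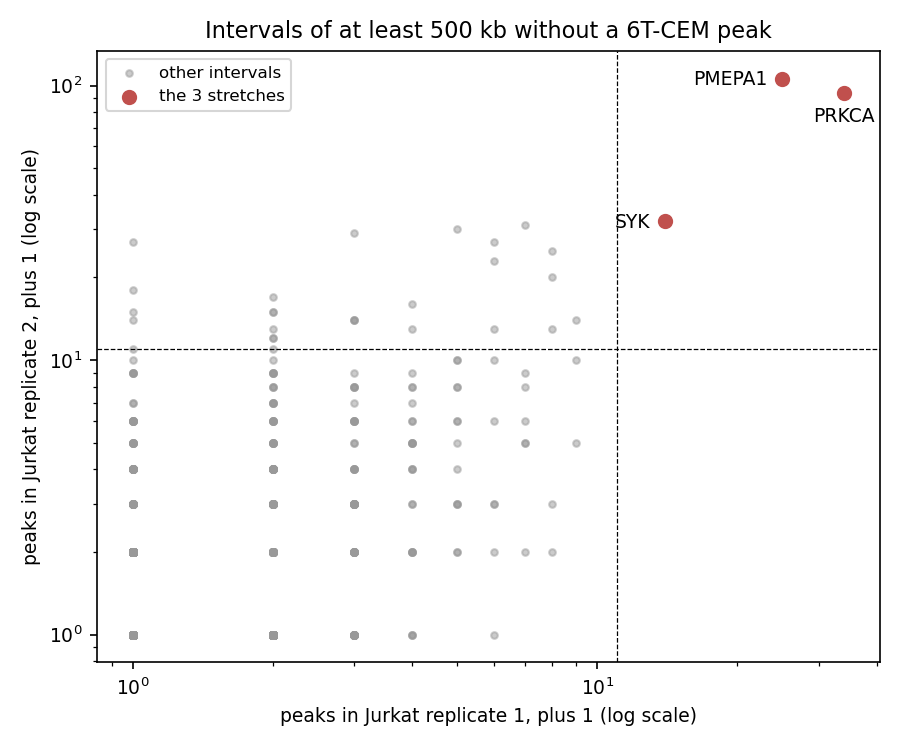
Peaks of Jurkat replicate 1 (x axis) and replicate 2 (y axis), each plus 1 on a log scale, in the 1210 intervals of at least 500 kb without a 6T-CEM peak; dashed lines mark 10 peaks. The SYK (13 and 31), PRKCA (33 and 93) and PMEPA1 (24 and 105) stretches lie beyond both lines.

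The lines were compared without a test, because 6T-CEM is represented by a single library. Peak lists hold no background signal, so a stretch without acetylation and one without mappable reads in 6T-CEM cannot be told apart.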

How the data were processed

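The files used were the H3K27ac peak lists, 2 for Jurkat and 1 for 6T-CEM; the 3 IgG samples were not analysed here. Tools named per the submitters' processing notes are MACS2 2.2.7 and Bowtie2 2.2.5, with build hg38; their options are not given in the sources used here. A further gene of the B-cell marker list is not reported here. Lists were called per library, per the names of the deposited lists. The deposited lists give each peak's fold (a ratio to the caller's background), −log10 p-value, −log10 q-value and a score; all are the authors' values, used only to describe, rank or filter peaks. No deposited −log10 q lay below 2.00. Depth is unknown, and Clopper-Pearson intervals (95%) cover counting error only. The series design text names CUT&Tag, whereas the labels' extraction protocol speaks of sonication and an antibody.

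Chromosomes 1 to 22 and X were used. Members were peaks lying wholly inside a stretch, and flanks were the adjoining 500 kb. Peaks sharing at least 1 base were joined into regions. Genes came from RefSeq (GRCh38.p14, the build of hg38; 19974 protein-coding genes). Both annotated ends were used with a limit of 1 kb, since a start and strand were at hand only for genes matched in a promoter table; there, the start stands 1 base after the 250 bases shown. Covered bases were summed within 25 kb of either end.

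The stretches, members and gene lists were chosen with earlier results of these data known, so no list is independent support for a direction. Genes named with values were SYK, PRKCA, PMEPA1 and genes with an end peak in both Jurkat libraries. Also named were the nearest outside gene with a 6T-CEM end peak, the 3 highest peaks per stretch and Jurkat library, and the lists. Within lists, and for CEP112, CIMIP1, ZBP1, AXIN2, GADD45G, NKILA and DNTT, examples were picked after their values were seen. No test or p-value was computed. Alternatives were a −log10 q of 5, equal list length, other overlaps, flanks, windows, stitching and scoring, and each Jurkat library left out. On simulated lists, all 20000 regions were classed correctly, 1 of 1 planted stretch was found, and 100 recounted windows held no error. Software was Python 3.11.15 with pandas 2.3.3, NumPy 2.4.6, matplotlib 3.10.9 and SciPy 1.17.1.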

Additional observations from a re-analysis of the deposited data

How the results depend on the processing

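The count of 6T-CEM peaks in the stretches was 0 under each alternative run, and the 6T-CEM value at SYK, PRKCA and PMEPA1 stayed at 0 bp under each window and filter. These zeros were fixed in advance, because the filters only remove peaks and every window stays inside its stretch. Over 83 alternative values, 55, these zeros included, moved by less than their limit and 28 moved by more, and the cause was not tested unless named here. With peaks of −log10 q of 5 or more, fewer peaks enter: replicate 1 members were 36 in place of 70, Jurkat regions 28 in place of 51, the flank share with a 6T-CEM peak 84.8% in place of 72.5%, and the gene-end share outside the stretches 88.5% in place of 90.2%; the replicate 1 bases at PMEPA1 were 483 bp in place of 5516 bp. With each list cut to its 16159 peaks of highest −log10 q, replicate 2 members were 112 in place of 229, the gene-end share 76.0%, and intervals past the limit 8 in place of 3; the replicate 2 bases at PRKCA were 464 bp in place of 1951 bp. Counting peaks within 1 kb as shared gave a gene-end share of 91.1% and a replicate 1 overlap of 92.9% in place of 81.4%. Leaving out Jurkat replicate 1 or 2 in turn, where a single library then defines a region, gave 70 to 229 regions, a flank share of 47.0% to 68.2%, a gene-end share of 77.1% to 78.9% and 3 to 30 intervals past the limit. Large stitched regions in the stretches were 5 in place of 3 in replicate 1 when scored by width alone, and 7 in place of 4 in replicate 2 with stitching at 5 kb. Start sites in place of gene ends, an alternative chosen after seeing the data, gave a gene-end share of 91.1%; regions built from the Jurkat lists alone were likewise chosen afterwards. No paired analysis was possible because the replicate numbers of Jurkat H3K27ac recur in the IgG samples alone, which were not analysed here, and no test was made. Unknown depth limits what an absent peak shows.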
